A study of Rattus norvegicus with 18 samples.

Results

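The 10 genes described here, Crisp2, Adam2, Adam3a, Akap3, Cage1, Lrrc23, C2cd6, Cmtm2a, Odf2 and Pdha2, belong for the most part to the tail and surface of the sperm cell. They were chosen by name, as genes with a high signal in germ cells that did not bind laminin in earlier results from these same arrays, so their signals are described and no test is made of them. Every probe set annotated to 1 of these genes alone was taken, which gave 13 of 31042 counted probe sets, 9 on array type A and 4 on array type B, and 10 of 13807 genes. Rats aged 22 days gave 9 testis cell populations, and transcripts of each were measured on 1 oligonucleotide array of each of 2 types (A and B), with no replicates. The populations were germ cells that did not bind laminin, a protein of the basement membrane, germ cells that bound it, germ cells kept for 1, 5, 10 or 20 days on STO feeders, germ cells kept for 20 days on MSC1 feeders, interstitial cells and tubular somatic cells. STO feeders are mouse embryonic fibroblasts and MSC1 feeders come from mouse Sertoli cells, both established lines, and the labels do not say how much feeder RNA remained in those libraries. No genotype, strain or treatment is named for any group. The labels call both laminin-sorted populations cultured but give no day.

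A sperm tail is built around an axoneme of microtubules with dynein arms and radial spokes, wrapped in outer dense fibres and a fibrous sheath. Many genes for these parts are switched on in pachytene spermatocytes, long before a tail exists, and their transcripts or proteins are held for the spermatid stages. Proteins of the sperm surface such as those of the ADAM family are likewise made early and processed later, and the germ cells use testis isoforms of several metabolic enzymes.

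Each array had been scaled by the authors to an average signal of 250, and array medians ran from 73.2 to 115 for type A and from 99.3 to 134 for type B. Signals under 50 were raised to that floor before a fold was taken, so where the dimmer side was below 50 the fold is a lower bound, written as at least. A gene was called where the brighter side reached 250 and the fold reached 3, by its probe set with the highest mean log2 signal. The 100 probe sets present on both array types gave the array error. For the 8 pairs with the non-binding library, the log2 folds of the types differed with a standard deviation per type of 0.21 to 0.29, and 2 mean standard deviations corresponded to a 1.38-fold difference (1.40-fold over all 36 pairs of populations). Single shared probe sets differed between the types by more, up to 1.67 in log2 fold for these pairs and 2.09 over all pairs. The array error covers the arrays and not animals, sorts, cultures or amplification. Gapdh probe sets at the 3' end read 5.63 times those at the 5' end in the non-binding library and 14.7 times on STO day 20 on type A. On both types the non-binding library had the lowest such ratio of the 9 populations, for Gapdh and for actin. On type A the ratios reached 29.7 for Gapdh and 94.3 for actin, both on STO day 10. The part of these differences in the folds was not tested. In such bulk samples, fewer cells of a type and less RNA per cell cannot be told apart.

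These genes were described as genes of spermatocytes, which was checked against marker genes. Sycp3 of the synaptonemal complex had a signal of 4181 in non-binding cells, and in the other 8 populations it lay between 74.5 and 2434. Spo11, the enzyme that starts meiotic recombination by cutting DNA, had 2417 in non-binding cells and 2381 on STO day 20, and at most 179 elsewhere. Transcripts of elongating spermatids were near or under the floor in all 9 populations. Prm1 and Tnp1, which encode a protamine and a transition protein of condensing chromatin, reached at most 56.8 and 9.7, Odf1 of the outer dense fibres at most 56.6 and Akap4 of the fibrous sheath at most 5.8. Over the whole lists, 12 of 16 meiotic prophase genes and 3 of 18 haploid spermatid genes had a signal of at least 250 in non-binding cells. The meiotic count does not set these cells apart from the other germ cells. It was also 12 on STO day 20, 9 to 11 in the other germ cell libraries and 1 in each somatic fraction. Chosen after their values were seen, the spermatid genes Klhl10 and Hook1 read 1038 and 1236 in non-binding cells, and the meiotic genes Sycp1 and Msh5 read 144 and 64.8. Ret, the signalling receptor of spermatogonial stem cells, had 87.3 in non-binding cells, 707 in binding cells and 1729.5 on STO day 1.

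In non-binding cells 9 of the 10 genes had a signal of at least 250, against 3 on STO day 20, 1 in each of laminin-binding cells, STO days 1, 5 and 10, MSC1 day 20 and interstitial cells, and 0 in tubular somatic cells. Over STO day 20, 8 of the 10 genes were called higher and 0 lower, where 3.12% of all genes were called higher and 1.61% lower. Over laminin-binding cells 9 were called higher and 0 lower, beside 5.29% and 4.85% of all genes. Over both somatic fractions 9 were called higher and 0 lower, beside 5.5% and 4.98%. Over each of the other 8 populations at once 8 were called higher and 0 lower, beside 1.02% and 0.0579% of all genes. The median log2 fold of the 10 genes was 4.13 over STO day 20 and 4.62 over laminin-binding cells, beside 0 for all genes in both. Because these contrasts chose the genes, the counts describe the choice and support nothing further.

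**Figure D1:**
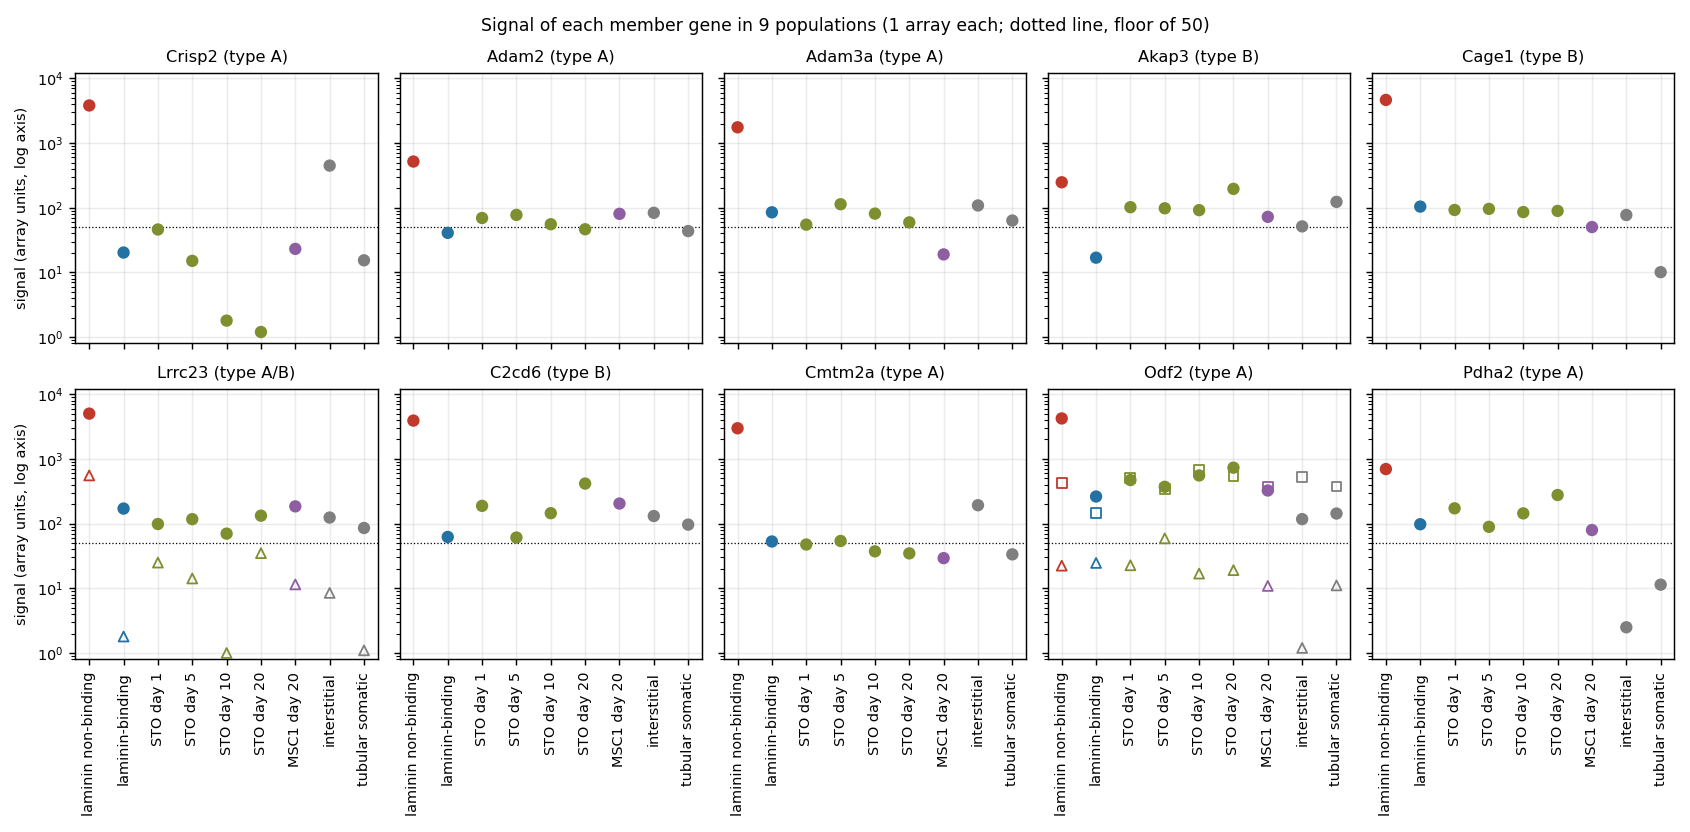
Signal of each of the 10 genes on a log axis in the 9 populations, 1 array per point, with filled circles for the probe set used for the gene, open symbols for its other probe sets and a dotted line at the floor of 50. The non-binding library is highest for every filled circle, by 1.26-fold for Akap3 and by up to 44.5-fold for Cage1, and Crisp2 also reads 448 in interstitial cells.

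The promoters of 4 genes are shown because these genes share the high signal in non-binding cells but differ in exact matches to short motifs. Lrrc23 holds GTTGCCA, a motif of the RFX factors, and Cage1 and Pdha2 hold TGACG, the short core of a cAMP response element. Crisp2, under the floor in 7 of the 9 populations, holds neither. Other spellings of the RFX motif were not searched. The windows are RefSeq sequences of the GRCr8 assembly from 250 bases before to 50 after a gene start, 5' to 3' on the strand of the gene, with matches on either strand to the cAMP core (TGACG) and to the RFX motif (GTTGCCA) in capitals.
Lrrc23 (chr4:159277715-159278014, minus strand): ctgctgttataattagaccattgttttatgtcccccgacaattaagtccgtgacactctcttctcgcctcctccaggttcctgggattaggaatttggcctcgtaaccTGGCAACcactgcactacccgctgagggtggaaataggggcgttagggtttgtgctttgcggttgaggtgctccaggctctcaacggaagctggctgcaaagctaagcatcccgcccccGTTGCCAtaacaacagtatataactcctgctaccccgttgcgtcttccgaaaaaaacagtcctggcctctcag
Cage1 (chr17:26995456-26995755, plus strand): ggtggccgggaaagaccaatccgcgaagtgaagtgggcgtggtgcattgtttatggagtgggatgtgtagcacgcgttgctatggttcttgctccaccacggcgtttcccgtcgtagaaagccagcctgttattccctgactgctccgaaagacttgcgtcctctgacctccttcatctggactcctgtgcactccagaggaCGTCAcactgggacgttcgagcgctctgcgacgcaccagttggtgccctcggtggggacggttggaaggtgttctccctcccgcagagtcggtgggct
Pdha2 (chr2:232547049-232547348, minus strand): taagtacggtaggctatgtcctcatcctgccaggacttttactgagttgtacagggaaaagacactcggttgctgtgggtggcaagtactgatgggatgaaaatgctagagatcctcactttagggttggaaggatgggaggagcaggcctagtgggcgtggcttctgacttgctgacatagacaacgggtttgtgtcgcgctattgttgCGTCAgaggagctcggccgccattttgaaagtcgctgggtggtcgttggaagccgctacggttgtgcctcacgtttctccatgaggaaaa
Crisp2 (chr9:27604004-27604303, plus strand): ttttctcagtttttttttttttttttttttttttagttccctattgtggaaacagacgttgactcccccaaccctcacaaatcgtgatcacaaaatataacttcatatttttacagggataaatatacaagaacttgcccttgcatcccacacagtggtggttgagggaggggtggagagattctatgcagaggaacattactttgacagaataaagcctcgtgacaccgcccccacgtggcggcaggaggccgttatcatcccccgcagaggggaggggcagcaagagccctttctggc

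Of the 10 genes 8 had a window in the RefSeq table, with 11 windows in all since Odf2 has 3 starts and C2cd6 has 2. GTTGCCA, one arm of the site of the RFX factors, which drive genes of cilia and flagella, was found in 1 of the 8 genes, in Lrrc23. It lies there at -142 on the opposite strand and at -23 on the strand of the gene, counted from the start site. Of 33469 windows of this length 4.56% hold it on either strand. TGACG, the core of the cAMP response element bound by CREM, was found in 3 of the 8 genes, at -48 in Cage1 and at -40 in Pdha2 on the opposite strand, and in 2 of the 3 windows of Odf2, and in 21.2% of all windows. The full element TGACGTCA, which contains TGACG, was in 0 of the 8 genes and in 1.83% of all windows. AACNG, the core of the MYB site, was in 7 of the 8 genes and in 81.4% of all windows, and TATAAA was in 0 of the 8 and in 14.2%. These counts are of genes and the shares are of windows. Counted by window, GTTGCCA was in 1 of the 11, TGACG in 4 and AACNG in 10. In Lrrc23 the RFX match at -23 overlaps a match to the MYB core at -25. A match describes letters in these windows and says nothing of binding by a factor.

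Among the surface genes, Crisp2 (gene 360445) encodes a cysteine-rich secretory protein of the acrosome and the outer dense fibres and lies on chromosome 9 from 27604024 to 27628520 (GRCr8). Its signal was 3811 in non-binding cells. On STO feeders it was 46.1, 15.1, 1.8 and 1.2 on days 1, 5, 10 and 20, all under the floor, and it was 23.1 on MSC1, 20.3 in laminin-binding cells and 15.4 in tubular somatic cells. Interstitial cells read 448, the second-highest value. Crisp2 was at least 76.2-fold higher in non-binding cells than on STO day 20 and than in laminin-binding cells, and 8.50-fold higher than in interstitial cells.

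Cmtm2a (gene 307616, chromosome 19 from 678154 to 685274) encodes a four-span membrane protein of the chemokine-like factor family, which in the mouse is needed for ADAM3 on sperm. As for Crisp2, non-binding cells came first and interstitial cells second. Its signal was 2982 in non-binding cells and 193 in interstitial cells, and between 29.3 and 54.0 in the other 7. Non-binding cells were at least 59.6-fold above STO day 20, 56.3-fold above laminin-binding cells and 15.5-fold above interstitial cells.

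Adam2 and Adam3a encode ADAM family proteins of the sperm membrane, fertilin beta and cyritestin, which in the mouse are needed for sperm to pass into the oviduct and bind the egg coat. Adam2 (gene 56806) lies on chromosome 15 from 44418191 to 44459570 and Adam3a (gene 57021) on chromosome 16 from 74002566 to 74052579. Adam2 had a signal of 518 in non-binding cells and 40.9 to 83.5 in the other 8 populations, none of which reached 250. It was at least 10.4-fold higher in non-binding cells than on STO day 20 (46.5), and 6.20-fold higher than in interstitial cells, its second-highest population. Adam3a had 1752 in non-binding cells, 59.4 on STO day 20 and 85.0 in laminin-binding cells, folds of 29.5 and 20.6. The remaining 6 populations read 19.0 to 113 for Adam3a, with STO day 5 and interstitial cells, at 113 and 109, closer to each other than the array error.

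Among the tail genes, Lrrc23 (gene 312707, chromosome 4 from 159267572 to 159277764) encodes a leucine-rich repeat protein of the third radial spoke in the mouse. Its probe set on type B had 5021 in non-binding cells and 70.1 to 185 in the other 8 populations, which left no second population apart, as MSC1 day 20 (185) and laminin-binding cells (171) were within the array error. The fold was 37.8 over STO day 20 and 29.3 over laminin-binding cells. Its second probe set, on type A, read 556 in non-binding cells and 1.0 to 35.0 in the other 8, all under the floor, an at least 11.1-fold difference. The 2 array types were separate hybridisations, and on both of them non-binding cells lay above all other populations. Both read the same population, so they do not repeat the sort or the cells, and Lrrc23 had been chosen for this signal.

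C2cd6 (gene 501147, chromosome 9 from 67929069 to 68024993) encodes a C2-domain protein that in mouse sperm belongs to the CatSper calcium channel complex of the tail. Its signal was 3919 in non-binding cells, against 62.3 in laminin-binding cells and 131 and 96.6 in interstitial and tubular somatic cells. On STO feeders it was 188, 61.0, 145 and 416.5 on days 1, 5, 10 and 20, and on MSC1 day 20 it was 205. Non-binding cells were 9.41-fold above STO day 20 and 62.9-fold above laminin-binding cells. STO day 20 itself was 6.69-fold above laminin-binding cells. By the probe set used for each gene this was the single call among the 10 genes in that comparison, beside 5.2% of all genes called higher and 5.96% lower.

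Cage1 (gene 306872, chromosome 17 from 26995671 to 27033740) is known as a cancer and testis antigen gene, expressed in testis and in tumours. Its signal was 4641 in non-binding cells, 104 in laminin-binding cells, 89.3 on STO day 20, 50.3 on MSC1 day 20 and 10.1 in tubular somatic cells. The other STO days and interstitial cells read 77.2 to 96.0. Its fold over STO day 20 was 52.0, and its 44.5-fold distance to the second population was the largest among the 10 genes. No second population stood above the rest, since laminin-binding cells were 1.09-fold above STO day 5.

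Odf2 (gene 29479, chromosome 3 from 33557738 to 33605076) encodes a main protein of the outer dense fibres and, in other isoforms, a centrosome protein of dividing cells. It has 3 probe sets on type A, and they disagreed. The first had 4231 in non-binding cells, 263 in laminin-binding cells, 326 on MSC1 day 20, and 117 and 143 in interstitial and tubular somatic cells. On STO feeders it read 472, 371, 556 and 733 on days 1, 5, 10 and 20, so that it was above 250 in all germ cell libraries. Non-binding cells were 5.77-fold above STO day 20 and 16.1-fold above laminin-binding cells by this probe set.

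The second Odf2 probe set was under the floor in 8 of 9 populations, with 22.4 in non-binding cells and 59.2 on STO day 5. The third read 425 in non-binding cells, within a range of 147 in laminin-binding cells to 673.5 on STO day 10, and interstitial cells had 518. By the third probe set non-binding cells were 1.29-fold below STO day 20, less than the array error, and 2.89-fold above laminin-binding cells, under the threshold. By the same probe set STO day 20 was 3.73-fold above laminin-binding cells, which passed the threshold. Which transcripts each probe set reads was not analysed here. With the mean over the 3 probe sets, Odf2 was not called over STO day 20 (log2 fold 0.72).

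Akap3 (gene 312720, chromosome 4 from 161374198 to 161400062) encodes an anchoring protein for protein kinase A in the fibrous sheath. It was the one gene of the 10 that passed no call in any comparison. Its signal was 247.5 in non-binding cells, just under the minimum of 250, and 196 on STO day 20, a 1.26-fold difference that lay within the array error. It read 102, 98.1 and 91.8 on STO days 1, 5 and 10, 72.3 on MSC1 day 20, 123 and 51.5 in tubular somatic and interstitial cells, and 16.9 in laminin-binding cells. Over laminin-binding cells the fold was at least 4.95, and Akap3 was called there once arrays were quantile normalized or matched at their 75th percentile.

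Pdha2 (gene 117098, chromosome 2 from 232545550 to 232547098) encodes the testis isoform of the E1 alpha subunit of pyruvate dehydrogenase and stands in germ cells for the X-linked Pdha1. Its signal was 698 in non-binding cells and 97.9 in laminin-binding cells, and 2.5 and 11.4 in interstitial and tubular somatic cells, the lowest values. On STO feeders it read 173, 89.3, 144 and 277 on days 1, 5, 10 and 20, and on MSC1 day 20 it read 79.6. It was 2.52-fold higher in non-binding cells than on STO day 20, under the threshold, and 7.13-fold higher than in laminin-binding cells. Pdha1 ran the other way, with its lowest signal, 145, in non-binding cells, 310.3 on STO day 20, and its highest, 1556 and 654, in interstitial and tubular somatic cells. No Pdha1 difference between non-binding cells and STO day 20 or laminin-binding cells passed the threshold (2.14-fold and 1.97-fold lower in non-binding cells).

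**Figure D2:**
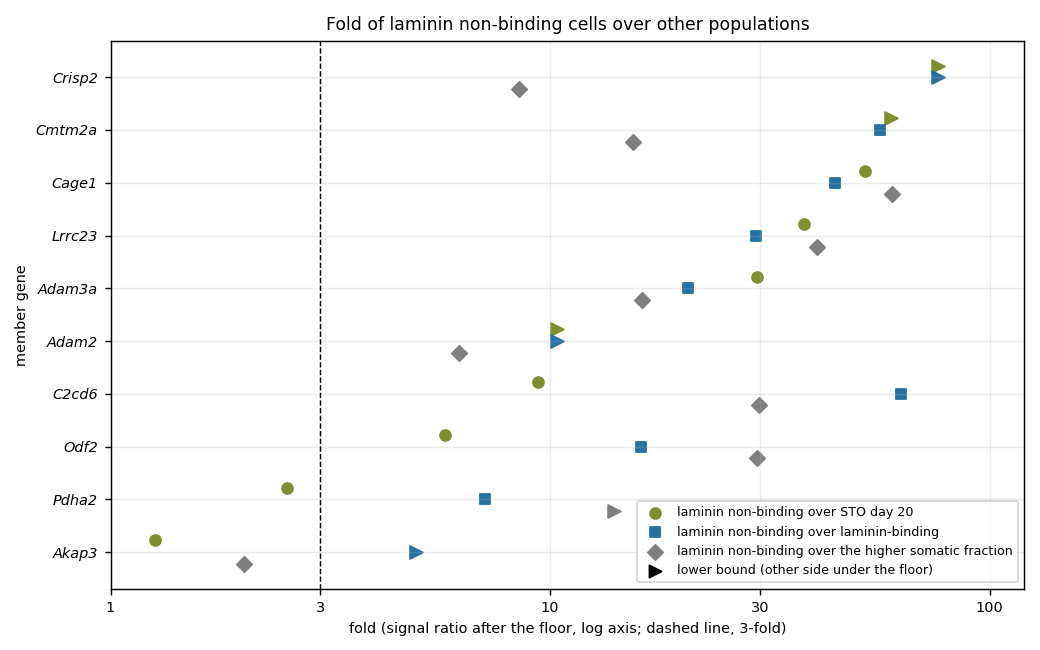
Fold of laminin non-binding cells over STO day 20, over laminin-binding cells and over the higher somatic fraction for the 10 genes, on a log axis with a dashed line at 3-fold and triangles for lower bounds. Akap3 and Pdha2 lie left of the line over STO day 20, at 1.26-fold and 2.52-fold, and Crisp2 is at least 76.2-fold.

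The genes differed in which population came second. For Odf2, Pdha2, Akap3 and C2cd6 this was STO day 20, for Crisp2, Cmtm2a and Adam2 interstitial cells, and for Cage1, Adam3a and Lrrc23 laminin-binding cells, STO day 5 and MSC1 day 20. Among all 1258 genes that were highest in non-binding cells with a signal of at least 250, STO day 20 came second for 33.9%, laminin-binding cells for 17.6% and interstitial cells for 10.4%. Among the 141 genes called higher than in all other 8 populations, which include 8 of the 10, these shares were 23.4%, 14.2% and 19.1%. Akap3, at 247.5, is in neither set. For Crisp2, C2cd6, Cmtm2a, Pdha2 and Akap3 the second population was more than 1.40-fold above the third, by at least 8.96-fold, 2.04-fold, 3.57-fold, 1.60-fold and 1.59-fold. For Odf2 the step was 1.32-fold. For the other 4 genes it was at most 1.09-fold, within the array error.

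The signal of Crisp2 in interstitial cells was not shared by the whole group. Lrrc23, C2cd6 and Cage1 read 124, 131 and 77.2 there, and Pdha2 was under the floor there, as in tubular somatic cells. The first probe set of Odf2 read 117 there, within the array error of tubular somatic cells (143), while the third probe set read 518. Cmtm2a and Adam2, which also had interstitial cells second, read 193 and 83.5 there. Ldhc, the lactate dehydrogenase of spermatocytes and sperm, read 6938 in non-binding cells and 261 in interstitial cells, while Spo11 read 5.9 and Sycp3 104 in interstitial cells. The source of the Crisp2 signal in this library was not tested.

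On STO feeders the genes did not move together from day 1 to day 20. None of the 10 was called between those days, beside 2.09% of all genes called higher and 3.76% called lower on day 20. C2cd6, Akap3, Pdha2 and Odf2 were higher on day 20 than on day 1 by 2.21-fold, 1.92-fold, 1.60-fold and 1.55-fold. Each was more than 2 mean standard deviations of the array error and under the threshold. For Odf2 this holds for its first probe set, whereas the third gave 1.06, and the mean over its probe sets gave a log2 fold of 0.24. The largest of these, C2cd6, had a log2 fold of 1.15, and for these 2 days single shared probe sets differed between the array types by up to 1.32. From day 10 to day 20 alone the ratios were 2.87 for C2cd6, 2.13 for Akap3, 1.92 for Pdha2, 1.90 for Lrrc23, and 1.32 for the first and 0.81 for the third probe set of Odf2. The ratio of day 20 over day 1 was 1.08 for Adam3a, 0.97 for Cage1 and at most 0.72 for Adam2, which was under the floor on day 20, and Crisp2 and Cmtm2a were under the floor on both days. Spo11 had 102, 179, 62.0 and 2381 on days 1, 5, 10 and 20, a 23.5-fold difference between day 20 and day 1.

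On MSC1 day 20, 1 of the 10 genes was called lower than on STO day 20, beside 2.72% of all genes, and 0 were called higher, beside 3.63%. Pdha2 was 3.48-fold lower (79.6 against 277). The values of Akap3, Odf2 and C2cd6 were 2.71-fold, 2.25-fold and 2.04-fold lower on MSC1, under the threshold, and the third probe set of Odf2 was 1.47-fold lower. For these 4 genes STO day 20 came second to non-binding cells, and that rank by itself places MSC1 day 20 lower. The overlap therefore adds no further result. Lrrc23 was at 185 on MSC1 and 133 on STO day 20, and Crisp2 and Cmtm2a were under the floor on both. Spo11 had 116 on MSC1 and 2381 on STO day 20. Of 16 meiotic prophase genes 3 were called lower on MSC1 and 0 higher, and of 16 fibroblast genes 1 was called higher and 0 lower. Of 17 genes of undifferentiated spermatogonia 5 were called higher on MSC1 and 1 lower, with a median log2 fold of 1.11. Of 11 steroidogenic genes 2 were called lower and 0 higher, of 15 Sertoli genes 1 higher and 0 lower, and of 13 macrophage genes 0 either way.

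Genes of meiotic prophase were also compared between non-binding cells and STO day 20. Of 16 meiotic prophase genes on the arrays 3 were called higher in non-binding cells and 0 lower, with a median log2 fold of 0.17, beside 0 for all genes. Spo11 differed by 1.01-fold and Sycp3 by 1.72-fold, but the list was mixed. The 3 called genes were Piwil2 (5.26-fold), Hspa2 (4.92-fold) and Psmc3ip (4.36-fold). Smc1b and Tex15, chosen after their values were seen, were 2.31-fold and 2.27-fold lower in non-binding cells, under the threshold. Over laminin-binding cells 7 of the 16 meiotic genes were called higher, with a median of 1.48. Of all genes, 3.12% were called higher and 1.61% lower over STO day 20, and 5.29% and 4.85% over laminin-binding cells. STO day 20 differed from non-binding cells in other cell markers as well. Of 16 peritubular myoid and fibroblast genes 7 were called lower in non-binding cells and 0 higher, led by Lox, a collagen cross-linking enzyme (65.4 against 729), Col1a2 (81.3 against 761), Col1a1 (67.9 against 540) and Col3a1 (68.4 against 480). Of 13 macrophage genes 3 were called lower, of 11 steroidogenic genes 2 were called lower and of 15 Sertoli genes 0 were called either way, and the part of these cells in the folds was not tested. The summed signal of the 16 fibroblast genes was 2251 in non-binding cells, 7753 on STO day 20 and 2027 in laminin-binding cells, with 6, 4 and 5 genes under the floor. That of the 13 macrophage genes was 1011 in non-binding cells, 1918 on STO day 20 and 985 in laminin-binding cells, with 3, 6 and 6 under the floor. Over laminin-binding cells, 1 of the 16 fibroblast genes was called, higher in non-binding cells, and 0 of the 13 macrophage genes, 0 of the 11 steroidogenic genes and 1 of the 15 Sertoli genes (lower).

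**Figure D3:**
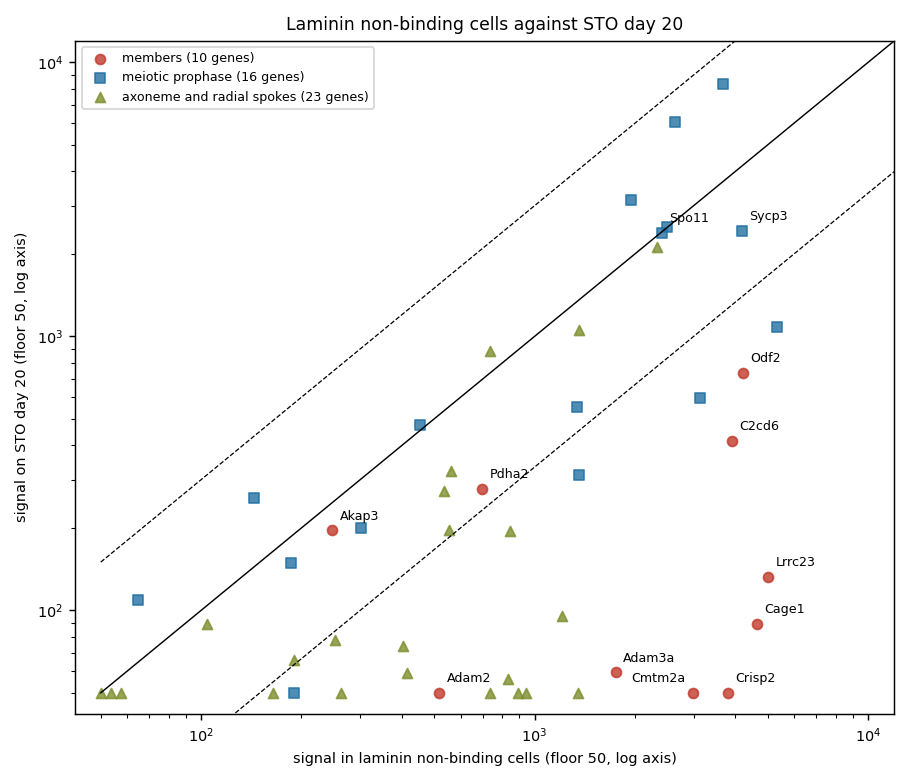
Signal in laminin non-binding cells (x axis) and on STO day 20 (y axis), both on log axes after the floor of 50, for the 10 genes (members), 16 meiotic prophase genes and 23 axoneme genes, with the line of equal signal and dashed lines at 3-fold. Spo11 lies on the line of equal signal, and 8 of the 10 genes lie below the lower dashed line.

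Other genes of the sperm tail were listed by structure, with the 10 genes left out. The lists were chosen with earlier results of these data known. Of all genes, 3.12% were called higher over STO day 20 and 5.29% over laminin-binding cells. In the axoneme and radial spoke list 11 of 23 genes were called higher in non-binding cells than on STO day 20 and 0 lower, with a median log2 fold of 1.69, and over laminin-binding cells 14 were higher and 0 lower, with a median of 1.99. Spag16, a protein of the central pair of microtubules, was at least 27.1-fold higher in non-binding cells (1354) than on STO day 20 (8.0) and than in laminin-binding cells (11.0). Dnali1, a light intermediate chain of axonemal dynein, was 12.7-fold and 23.7-fold higher. Of the 23 axoneme genes 10 were called higher than in all other 8 populations, beside 1.02% of all genes. In the list of fibrous sheath and outer dense fibre genes 5 of 15 were called higher in each of both comparisons and 0 lower, with medians of 0.59 and 0.59. Examples, chosen after their values were seen, are Ropn1l, a ropporin-like protein of the tail, with 3973 in non-binding cells and 162 on STO day 20, and Tcp11, with 592 and 56.4. The fibrous sheath gene Akap4 was under the floor in all populations, as given above.

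Surface and acrosome genes outside the 10 can be read beside the 3.12% of all genes called higher over STO day 20 and the 5.29% over laminin-binding cells. Of 19 genes of the sperm surface and of ADAM chaperones 1 was called higher than on STO day 20 and 3 than in laminin-binding cells, 0 lower, with medians of 0 in both. The one was Adam32, another ADAM gene of testis, with 1620.2 in non-binding cells, 44.2 on STO day 20 and 78.7 in laminin-binding cells. Of 13 acrosome genes 1 was called higher than on STO day 20 and 2 than in laminin-binding cells, and Zpbp, which encodes a zona pellucida binding protein of the acrosome, was 30.6-fold higher than on STO day 20 (2526 against 82.5). Of 9 genes of ion channels and signalling in the tail 1 was called higher in each comparison, Catsperz of the CatSper complex (651 in non-binding cells, 22.2 on STO day 20 and 16.7 in laminin-binding cells), and 1 was called lower than in laminin-binding cells. Of 18 haploid spermatid genes 1 and 2 were called higher, 0 lower. Whether the shares of these lists differ from one another was not tested.

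Of 21 genes of metabolic enzymes and their testis isoforms 6 were called higher than on STO day 20 and 4 than in laminin-binding cells, with 0 lower. Ldhc was at least 139-fold and 53.7-fold higher in non-binding cells, and Fabp9, a fatty acid binding protein of the sperm head, at least 119-fold and 21.4-fold. Of 15 genes of transcription and translation factors of spermatocytes 4 and 6 were called higher and 0 lower. Crem, a regulator of genes of late spermatogenesis, read 2802 in non-binding cells, 1506 on STO day 20 and 245 in laminin-binding cells by its probe set with the highest mean signal. That probe set also read 1239 in interstitial and 502.5 in tubular somatic cells. The 2.26-fold difference between non-binding and interstitial cells was under the threshold. Rfx2, a driver of ciliary genes, read 590 in non-binding cells, 161 on STO day 20 and 222 in laminin-binding cells. It also read 469 on MSC1 day 20, 375 on STO day 10 and 333 on STO day 5. Non-binding cells were 1.26-fold above MSC1 day 20, within the array error. In the list of undifferentiated spermatogonia 1 of 17 genes was called higher than on STO day 20 and 0 than in laminin-binding cells, where 6 were called lower. The largest of these folds were Ret at 8.10-fold, Itga6 at 7.38-fold, Sox3 at 6.90-fold and Nanos3 at 6.52-fold. Itga6 was not particular to germ cells, with 3270 in laminin-binding cells and 7991 in tubular somatic cells.

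**Figure D4:**
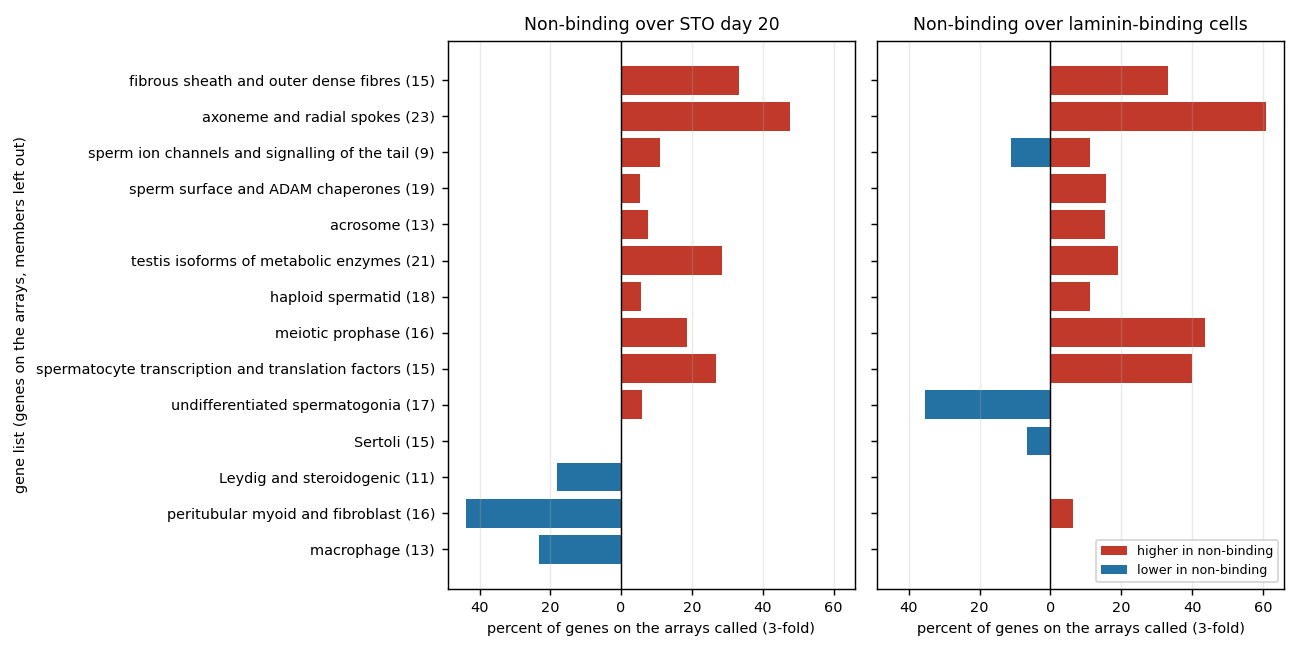
Percent of the genes of each list called at 3-fold in laminin non-binding cells over STO day 20 (left) and over laminin-binding cells (right), with calls higher in non-binding cells to the right of 0 and lower to the left, and the number of genes on the arrays in brackets. Axoneme genes reach 11 of 23 and 14 of 23 higher, and fibroblast genes 7 of 16 lower over STO day 20.

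The genes with the most similar profile were found by the root mean square difference of log2 signals over the 9 populations, each centred on the gene's own mean, from the median profile of the 9 genes of the 10 with a signal of at least 250. The first were Spag16 at 0.19, Adam32 at 0.29, LOC100911360 at 0.33, Tekt2, a tektin of the tail microtubules, at 0.33 and Phf7, a chromatin reader of male germ cells, at 0.36. Ube2d2b, Plaat5, Asrgl1, Catsperz and Morn5 followed at 0.36 to 0.45. All 10 of these genes read at most 166 in every population but non-binding cells, where they read 651 to 2278. The nearest single gene was Plaat5 for Crisp2 (0.69) and Cmtm2a (0.32), Spag16 for Lrrc23 (0.47), Morn5 for C2cd6 (0.55), and Ccdc181 for both Odf2 (0.37) and Pdha2 (0.27). For Adam3a it was Ube2d2b (0.33), for Adam2 Fbp1 (0.22) and for Cage1 Marchf11 (0.38). Plaat5, like Crisp2 and Cmtm2a, had interstitial cells in second place, with 2056 in non-binding and 122 in interstitial cells. These likenesses rest on 9 libraries of which 1 stands out, and with Pearson's correlation as the measure 3 of the 10 genes, Spag16, Tekt2 and Catsperz, were again among the first 10.

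**Figure D5:**
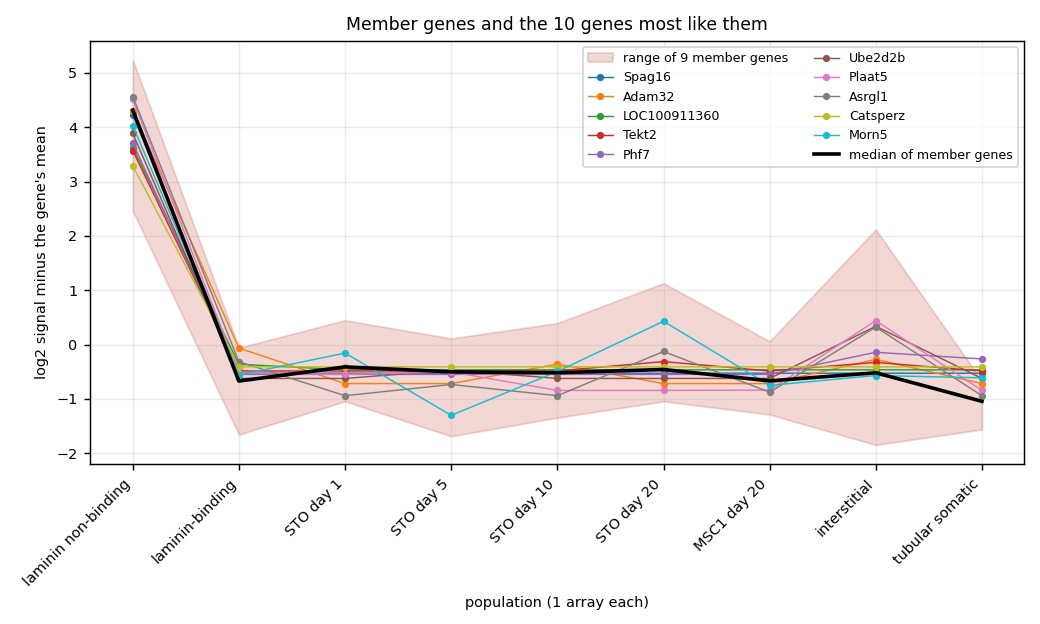
Log2 signal minus the gene's own mean in the 9 populations for the median of 9 of the 10 genes (black), their range (shaded) and the 10 genes with the smallest root mean square difference from that median. The median lies at 4.32 in laminin non-binding cells and between -1.05 and -0.41 in the other 8, and the shaded range is wide in interstitial cells, up to 2.12 for Crisp2.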

How the data were processed

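Transcripts of 9 rat testis cell populations had been measured on 2 types of oligonucleotide array, from 50 ng of total RNA amplified in 2 rounds, per the labels. Each deposited value is the linear intensity of a probe set on an array that the authors had scaled to a mean of 250, per the labels. Detection calls (Tau 0.015, per the labels) were not used here. How background was treated, and with which software, is not given in the sources used here. Of 15923 and 15333 probe sets on types A and B, 57 controls on each were left out and 100 shared ones were counted on type A. On type A 12789 probe sets had 1 gene, 312 several and 2822 none in the platform annotation, and on type B 7570, 100 and 7663. Symbols and positions come from RefSeq (GRCr8).

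Folds, calls and likeness were computed with Python 3.11.15, pandas 2.3.3 and numpy 2.4.6. The code for the calls was run on simulated signals with set folds well above the threshold or with none. That run checks the code and says nothing of the spread between animals, sorts, cultures or amplifications. A lower call against several populations meant below each of them. With 1 array per population and type there was no test. The genes named are the 10, the 10 most similar in profile, the nearest gene of each, the 4 largest called folds per direction among 14 lists in the comparisons with STO day 20 and laminin-binding cells, and fixed reference genes, of which Pgk2 and Mybl1 were not analysed here. Ropn1l, Tcp11, Klhl10, Hook1, Sycp1, Msh5, Piwil2, Hspa2, Psmc3ip, Smc1b and Tex15 fall outside this rule. The 10 genes and the lists were chosen with earlier results of these data known. Some lists share genes. The number of arrays limits the precision. Alternatives were floors of 25 and 100, other scalings, the mean over probe sets, and other thresholds.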

Additional observations from a re-analysis of the deposited data

How the results depend on the processing

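The numbers of the 10 genes called higher in non-binding cells than on STO day 20, than in laminin-binding cells, than in both somatic fractions and than in all other populations were 7 to 10 under the 8 alternatives, and the log2 folds of the genes called in these comparisons kept their sign. With the mean over probe sets Odf2 left the calls over STO day 20, which were then 7, and with a fold of 2 Pdha2 joined them, which made 9. The counts that moved are small. With a fold of 2, C2cd6 alone (1 gene) was called higher on STO day 20 than on day 1, 3 genes (C2cd6, Odf2 and Pdha2) were higher on STO day 20 than in laminin-binding cells, and the same 3 were lower on MSC1 than on STO day 20. With a brighter side of at least 500, 0 were called between STO day 20 and laminin-binding cells and between MSC1 and STO day 20. With a fold of 5 or a floor of 100, 0 were called between MSC1 and STO day 20. The lower bounds follow the floor by construction, as Crisp2 over STO day 20 had a log2 fold of at least 7.25 with a floor of 25 and 5.25 with a floor of 100. The array error was 0.25 over all 36 pairs and 0.24 with shared probe sets of a mean signal of at least 100. With Pearson's correlation 3 of the 10 most similar genes remained. Differences among signals under the floor cannot be read, which covers most values of Crisp2, Cmtm2a and the type A probe set of Lrrc23 outside non-binding cells. No paired analysis was possible because each population has 1 array per type and the labels give no replicate numbers.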
